A study of Mus musculus with 18 samples.

Results

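Adhesion G protein-coupled receptors are cell surface receptors with a long extracellular region joined to a membrane-spanning region of the G protein-coupled type. Most of them are cut during maturation within a conserved extracellular domain, and the freed end of the membrane part can act as a tethered agonist when the outer part binds a ligand on a neighbouring cell or in the matrix. In the vessels of the central nervous system Adgra2 is known as a coreceptor with Reck for Wnt7a and Wnt7b, while the latrophilins Adgrl1, Adgrl2 and Adgrl3 are known from synapses, where they bind teneurins, FLRT proteins and neurexins.

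The 9 receptor genes described here were Adgrl4, Adgrf5, Adgra2, Adgrg1, Adgrl1, Adgrl2, Adgrl3, Adgre5 and Adgrv1. They were taken as every probe set, the group of short probes that reads 1 transcript, whose annotation gave one of these symbols and no other. This gave 18 probe sets of 36701 on the 3 Affymetrix MGU74v2 chips, 4 on chip A, 8 on chip B and 6 on chip C. All 9 genes had at least 1, out of 15964 genes with such a probe set. The genes were picked with results of the same comparison already known, so their values are a description and carry no test.

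The study compared GFP-positive cells with GFP-negative cells sorted from retinas of FVB/N mice at postnatal day 8, when retinal vessels are still growing. The mice of both populations were homozygous for the Tie2-GFP transgene, whose promoter is active in endothelial cells and, as is known from other work, in some blood-derived cells. Retinas were pooled and digested with papain before sorting, and amplified RNA was hybridised with 3 arrays per population and chip, 18 in all. Whether these 3 arrays used separate pools of animals is not stated, so errors and p-values cover only the spread between arrays, which may be technical.

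Values are the deposited intensities, on a linear scale, with array medians of 32.5 to 44.6. Each difference is that of GFP-positive from GFP-negative cells in log2(intensity + 16), positive where GFP-positive cells were higher, with its standard error (SE) from limma. The added 16 shrinks the differences of dim probe sets. A probe set was called when its p-value, adjusted over its chip, was under 0.05. In sorted bulk cells, fewer expressing cells and less RNA per expressing cell cannot be told apart.

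Of all 15964 genes measured by 1 probe set each, 9.42% were called higher in GFP-positive cells and 11.2% lower. Endothelial markers were called higher in GFP-positive cells for 16 of 19 genes, with a summed intensity of 18408 to 21757 in GFP-positive and 2546 to 3590 in GFP-negative arrays. Most of the GFP-negative sum was Kdr, which was not called (0.01). It read 2796, 2128 and 1811 in GFP-negative arrays, against 1986, 2447 and 2272 in GFP-positive arrays. Markers of retinal neurons and glia were called lower for 10 of 18 measured genes, with sums of 788 to 1817 in GFP-positive and 8489 to 10276 in GFP-negative arrays. The 1817 was the sum of GFP-positive replicate 3, and much of it was 1 probe set, that of Glul. It read 136, 156 and 986 in GFP-positive arrays, against 117, 142 and 131 in GFP-negative arrays, and was not called. GFP-positive replicate 3 stood apart, with rank correlations of 0.911 to 0.929 with the other arrays of its population, against 0.960 to 0.987 for all other pairs within a population. Without it 16 endothelial genes were called higher and 9 neural and glial genes lower. It read 1507 probe sets, or 4.11%, more than 2-fold above the mean of GFP-positive replicates 1 and 2, after adding 16 to both. Receptor differences that changed call or sign without it are given both ways, and counts over lists follow in their paragraphs.

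Of the 18 receptor probe sets, 5 were called higher in GFP-positive cells, 4 lower and 9 neither. Over all 3 chips 7.42% of probe sets were called higher and 8.86% lower, and nothing is read from these shares because the genes were picked on this comparison. On chip A 0 of the 4 were called, where 9.09% of all probe sets were called higher and 9.25% lower. On chip B 4 of 8 were called higher and 2 lower, where 9.6% and 11.3% were, and on chip C 1 of 6 was called higher and 2 lower, where 3.4% and 5.88% were. All GFP-positive arrays lay above all GFP-negative arrays in 5 of the 18 and below them in 5, as they did in 21.3% and 16% of all probe sets. The probe sets called higher belonged to Adgrl4, Adgrf5 and Adgra2, and those called lower to Adgrl2, Adgrl3 and Adgrv1. Adgrg1, Adgrl1 and Adgre5 had none called. The median difference over the 18 probe sets was 0.03, against 0.01, 0.09 and 0.05 over all probe sets of chips A, B and C. Without GFP-positive replicate 3, 7 receptor probe sets were called lower and the same number higher as with it. Calls over all probe sets rose too without that array. On chips A, B and C those called lower went from 1149, 1405 and 698 to 1731, 1657 and 1417. Those called higher went from 1129, 1191 and 403 to 1738, 1473 and 1559, so nothing is read from the 7 either.

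**Figure D1:**
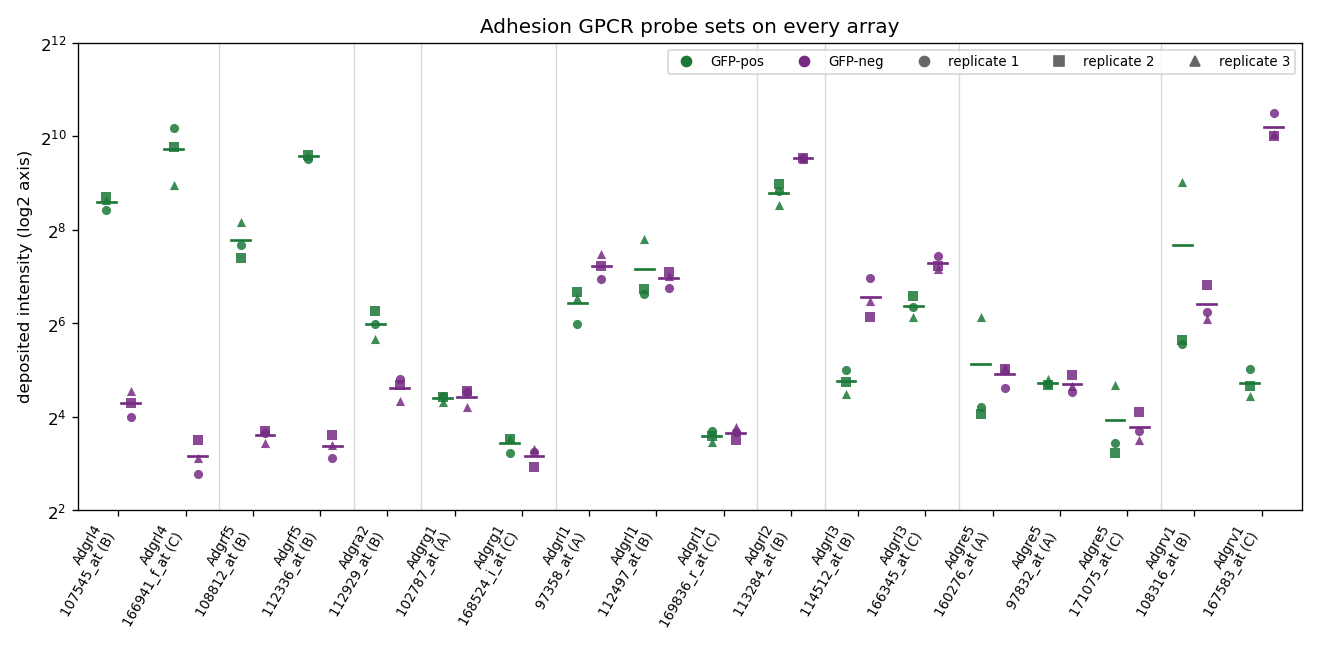
Deposited intensity (log2 axis) of each of the 18 receptor probe sets on every array, GFP-positive on the left and GFP-negative on the right of each pair, with the chip in brackets, 1 symbol shape per replicate number and a line at each mean (n = 3). The arrays of the populations lie far apart for Adgrl4, Adgrf5 and the chip C probe set of Adgrv1, and a single high GFP-positive array, replicate 3, stands out in 108316_at of Adgrv1 and 160276_at of Adgre5.

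Adgrf5, a receptor also known as GPR116 that is made in endothelium and in lung epithelium, was read by a pair of probe sets on chip B. Probe set 112336_at read 737, 779 and 769.8 in GFP-positive arrays, against 8.69, 12.2 and 10.6 in GFP-negative arrays. Probe set 108812_at read 204, 168 and 290.2 in GFP-positive arrays, against 12.7, 12.9 and 10.9 in GFP-negative arrays. Every GFP-positive array was far above every GFP-negative array in both, and the GFP-positive arrays of 112336_at were close together, at 761.9 ± 21.8 (SD, n = 3). The differences were 4.88 (SE 0.09) and 3.04 (SE 0.19), and the larger was the sixth highest of the 12411 probe sets of chip B.

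Adgrl4, an endothelial receptor also known as ELTD1 that has been linked to vessel sprouting, was read on chips B and C. Probe set 107545_at read 345, 415 and 399.9 in GFP-positive arrays, against 16.02, 19.7 and 23.4 in GFP-negative arrays. Probe set 166941_f_at on chip C, whose suffix marks a set that can match a family of related sequences, read 1163, 880.0 and 501 in GFP-positive arrays, against 6.91, 11.4 and 8.77 in GFP-negative arrays. Both chips thus gave GFP-positive arrays well above all GFP-negative arrays, and on chip C replicate 3 was the lowest of the GFP-positive arrays. The differences were 3.50 (SE 0.12) on chip B and 5.03 (SE 0.30) on chip C, where it was the third highest of 11868, and 5.36 (SE 0.14) on chip C without GFP-positive replicate 3.

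Adgra2, known as GPR124 and as the vessel receptor that acts with Reck in Wnt7 signalling, had 1 probe set. It read 63.2, 77.1 and 51.0 in GFP-positive arrays, against 28.1, 25.7 and 20.3 in GFP-negative arrays. The populations did not overlap, but the gap was much smaller than for Adgrf5 and Adgrl4, at 0.96 (SE 0.15). The GFP-negative readings lay below the array medians, and the call held when any 1 array was left out.

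The promoters of Adgrf5 and Adgrl4 are shown because these receptors had the largest positive differences. RefSeq promoters on GRCm38.p6, a C57BL/6J genome and not that of the FVB/N mice used, matched 7 of the 9 genes with 11 start sites, and the unmatched genes were Adgra2 and Adgre5. Shown are the 250 bases before each start, 5′ to 3′, on the plus strand. Capitals mark CAGGAA or its reverse complement TTCCTG, letters that fit the binding sequence of ETS factors and were picked after the differences were known.
Adgrf5, chr17:43360181-43360430: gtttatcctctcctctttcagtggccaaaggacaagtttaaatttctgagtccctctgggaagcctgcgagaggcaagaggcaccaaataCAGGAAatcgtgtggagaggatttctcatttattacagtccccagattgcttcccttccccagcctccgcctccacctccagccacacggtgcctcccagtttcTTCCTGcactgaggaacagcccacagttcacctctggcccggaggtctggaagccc
Adgrf5, chr17:43389216-43389465: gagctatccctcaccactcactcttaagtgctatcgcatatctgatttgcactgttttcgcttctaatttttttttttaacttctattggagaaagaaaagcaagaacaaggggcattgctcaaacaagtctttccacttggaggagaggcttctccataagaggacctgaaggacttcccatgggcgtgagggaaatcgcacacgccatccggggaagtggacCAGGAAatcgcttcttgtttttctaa
Adgrl4, chr3:151437632-151437881: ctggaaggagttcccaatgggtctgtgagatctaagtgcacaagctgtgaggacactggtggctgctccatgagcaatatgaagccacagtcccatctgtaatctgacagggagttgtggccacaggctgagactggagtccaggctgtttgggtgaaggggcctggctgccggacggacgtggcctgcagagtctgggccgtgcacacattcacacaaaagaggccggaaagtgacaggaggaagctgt
The match began at positions -160 and -56 from the first Adgrf5 start and at -26 from the other. Adgrl4 had none in this window, but other sequences that ETS factors can bind were not searched. The match was present in 4 of the 11 receptor promoters, namely both of Adgrf5, 1 of Adgrg1 and that of Adgrl2. It was present in 25.7% of all 32851 promoters of this length. It was thus shared by receptors with positive, negative and near-zero differences. ACAAT or ATTGT, the core of SOX sites, was found in 2 of the 11, in Adgrg1 and Adgrl3, and in 27.7% of all promoters. GGATTA or TAATCC, the site of the photoreceptor factor CRX, was found in 0 of the 11 and in 6.25% of all promoters.

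Adgrv1, the very large receptor of photoreceptor and inner ear hair cell links whose loss causes Usher syndrome in humans, gave readings that differed between its probe sets. On chip C, 167583_at read 32.4, 25.4 and 21.8 in GFP-positive arrays, against 1453, 1031 and 1067 in GFP-negative arrays. All GFP-negative arrays were far above the GFP-positive ones, and the difference of -4.81 (SE 0.16) was the fourth lowest of 11868. On chip B, 108316_at read 47.0, 50.1 and 521 in GFP-positive arrays, against 75.5, 114 and 68.3 in GFP-negative arrays. Here GFP-positive replicates 1 and 2 lay below all GFP-negative arrays while replicate 3 lay above them, which gave 0.39 (SE 0.81) with all arrays and -0.63 (SE 0.19), a call, without replicate 3. The chip C value without that array was -4.73 (SE 0.17).

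The latrophilins, which share a subfamily with Adgrl4, differed from it in sign where they were called. The probe set of Adgrl2 read 459, 504 and 372 in GFP-positive arrays, against 747, 742 and 739 in GFP-negative arrays. It was bright in both populations and lower in GFP-positive cells by a small and non-overlapping margin, at -0.73 (SE 0.12). The call ended under quantile normalization, which gave -0.60.

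Adgrl3 was lower in GFP-positive cells on both chips that held it. Probe set 114512_at on chip B read 32.3, 26.7 and 22.4 in GFP-positive arrays, against 125, 70.7 and 89.9 in GFP-negative arrays. Probe set 166345_at on chip C read 81.6, 96.8 and 70.6 in GFP-positive arrays, against 175, 150.2 and 144 in GFP-negative arrays. No arrays overlapped in either. The differences were -1.34 (SE 0.19) and -0.81 (SE 0.12), and the chip C call ended without GFP-negative replicate 1 (-0.73) or 2 (-0.83).

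Adgrl1 had 3 probe sets and no call. Probe set 97358_at on chip A read 63.8, 102 and 92.8 in GFP-positive arrays, against 124, 150.1 and 179 in GFP-negative arrays. The populations did not overlap there, and the difference of -0.72 (SE 0.19) just missed the threshold and passed it without GFP-positive replicate 3 (-0.77). Probe set 112497_at on chip B read 98.4, 107 and 225 in GFP-positive arrays, against 109, 138 and 129.8 in GFP-negative arrays. Replicate 3 was again the high GFP-positive array, and the difference was 0.09 (SE 0.29) with it and -0.25 (SE 0.13) without it, neither a call. Probe set 169836_r_at on chip C was dim throughout, at 12.01 ± 1.01 in GFP-positive and 12.6 ± 1.19 in GFP-negative arrays (SD, n = 3 each).

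Adgrg1, known as GPR56 and as a receptor for collagen III and transglutaminase 2 in the developing brain, was dim on both chips. Probe set 102787_at read 21.7, 21.5 and 19.9 in GFP-positive arrays, against 23.1, 23.5 and 18.4 in GFP-negative arrays. Probe set 168524_i_at read 9.36, 11.5 and 11.6 in GFP-positive arrays, against 9.58, 7.59 and 9.89 in GFP-negative arrays. The populations overlapped in both, with differences of -0.02 (SE 0.08) and 0.10 (SE 0.07), and readings this dim may hold little but background. Without GFP-positive replicate 3 the difference of 102787_at was 0.0007 (SE 0.09).

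Adgre5, the leukocyte receptor CD97, which binds CD55, had 3 dim probe sets. Probe set 160276_at read 18.4, 16.8 and 70.3 in GFP-positive arrays, against 24.7, 32.5 and 33.2 in GFP-negative arrays. As with Adgrv1 on chip B, replicate 3 lay above all GFP-negative arrays and replicates 1 and 2 below them, so the difference was 0.00 (SE 0.38) with it and -0.45 (SE 0.11), a call, without it. Probe set 171075_at had the same order of GFP-positive arrays, with 10.9, 9.39 and 25.9 against 12.9, 17.2 and 11.4 in GFP-negative arrays. Its difference was 0.04 (SE 0.20) with replicate 3 and -0.19 (SE 0.10) without it, neither a call. Probe set 97832_at was level, at 26.7 ± 1.42 in GFP-positive and 26.2 ± 3.33 in GFP-negative arrays (SD, n = 3 each). The difference there was 0.02 (SE 0.08) with replicate 3 and -0.01 (SE 0.09) without it.

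The marker counts here stand beside shares of 9.42% called higher and 11.2% lower over all genes measured by 1 probe set, with all arrays. Markers of leukocytes and microglia were called higher for 3 of 15 measured genes and lower for none, and without GFP-positive replicate 3 for 3 and 1. Their summed intensity was 790.4, 940 and 1624 in GFP-positive arrays, against 545 to 579 in GFP-negative arrays. The high sum on replicate 3 came from 1 probe set, and the other 14 genes summed to 753, 899 and 694 in GFP-positive arrays, against 444 to 467 in GFP-negative arrays, so that replicate 3 was then the lowest of the GFP-positive arrays. That probe set was the brighter one of Csf1r, the receptor of a microglial growth factor, which read 37.3, 41.2 and 929.8 in GFP-positive arrays against 94.3, 112 and 108 in GFP-negative arrays, a difference of 0.24 that was -1.13, a call, without replicate 3. The other Csf1r probe set read 37.2, 36.4 and 34.6 in GFP-positive arrays against 32.4, 36.9 and 32.6 in GFP-negative arrays, and Ptprc, the pan-leukocyte CD45 gene, read 29.3, 34.3 and 56.7 against 34.5, 41.8 and 37.6. Most of the gap in the sums of the 14 genes lay in the 3 called higher. These were Fcer1g (mean 219 in GFP-positive against 59.4 in GFP-negative arrays), Laptm5 (155 against 41.5) and C1qb (61.4 against 28.9). Both other Laptm5 probe sets were called higher too, but the other probe set of Fcer1g and that of C1qb were not called. The part of leukocytes and microglia in the Adgre5 readings was not tested. Pericyte markers had 1 of 10 genes called higher, Mcam, which endothelial cells also make, and without GFP-positive replicate 3 also 1 called lower, Rgs5. All 10 summed to 734 to 1184 in GFP-positive and 430.3 to 492 in GFP-negative arrays, but without Mcam the other 9 summed to 324, 297 and 389.5 in GFP-positive and 346 to 411 in GFP-negative arrays, and Pdgfrb, the pericyte receptor, read 26.5 ± 6.25 against 32.9 ± 4.62 (SD, n = 3 each).

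**Figure D2:**
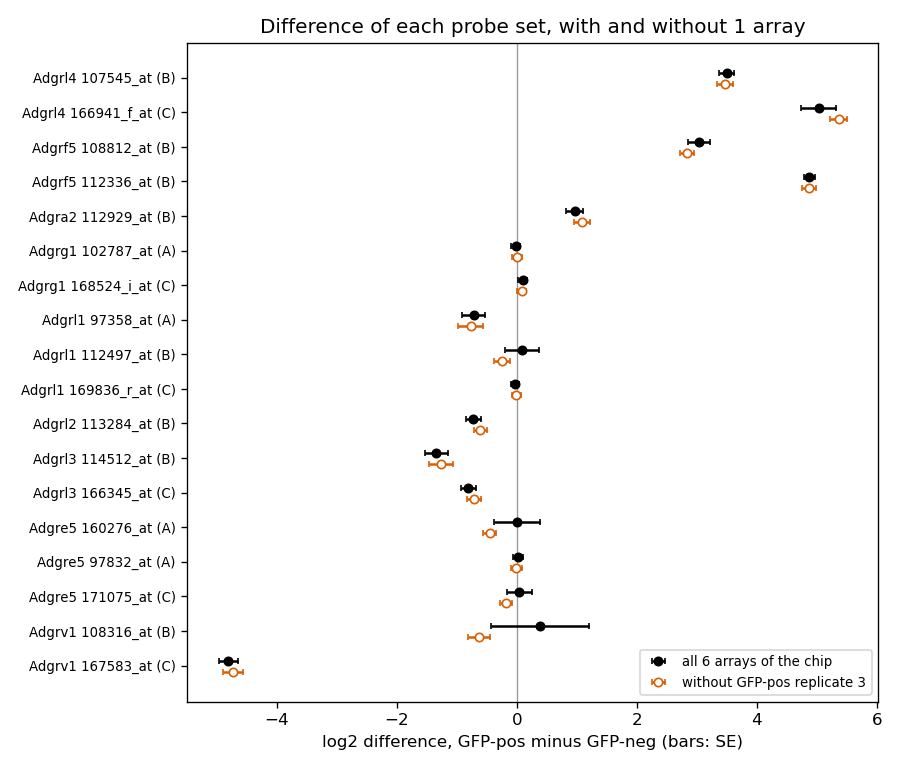
Log2 difference, GFP-positive minus GFP-negative, of each receptor probe set with its SE, from all 6 arrays of the chip (filled) and without GFP-positive replicate 3 (open). The values of Adgrl4, Adgrf5, Adgra2, Adgrl2 and Adgrl3 stay on 1 side of 0, while 108316_at of Adgrv1 lies at 0.39 with all arrays and at -0.63 without that array.

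The genes around these receptors were taken as 4 lists, of which 55 of 74 genes were measured by 1 probe set each, the brightest on the first chip that held the gene. Of the 55, 9 were called higher and 5 lower in GFP-positive cells, with a median difference of 0.03. Of all 15964 genes measured in this way, 9.42% were called higher and 11.2% lower, with a median of 0.04. Calls over all probe sets rose in both directions without GFP-positive replicate 3, so list counts without it are not comparable with these shares.

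Of the other adhesion receptors, 14 of 21 were measured, 2 were called higher and 1 lower (3 and 2 without GFP-positive replicate 3), and the median was 0.05. Adgrg3, a receptor known as GPR97 and best known from granulocytes, read 70.4, 82.95 and 74.9 in GFP-positive arrays, against 13.7, 13.8 and 13.2 in GFP-negative arrays, a rise of 1.64 (SE 0.08, limma adjusted p = 9.93e-05), while a dim Adgrg3 probe set on chip C did not pass (-0.02). Adgrd1 rose by 0.44 (SE 0.08, limma adjusted p = 0.0114), and without GFP-negative replicate 3 it missed the threshold (adjusted p = 0.0578). Celsr3, a seven-pass cadherin that guides axons, read 41.5, 98.0 and 67.6 in GFP-positive arrays, against 639.6, 1022 and 1256 in GFP-negative arrays, and differed by -3.54 (SE 0.33, limma adjusted p = 0.00206). Adgrb1, the brightest member that did not pass, was at -0.21 (SE 0.11) and passed without GFP-positive replicate 3 (-0.31, limma adjusted p = 0.0310).

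Of the ligands and partners, 18 of 20 were measured, 2 were called higher and 3 lower (3 and 4 without GFP-positive replicate 3), and the median was 0.02. The FLRT, teneurin and neurexin families, which hold latrophilin ligands, had 9 measured genes. On the probe set used for each, 3 were called lower, 0 higher and 6 neither, with those 6 between -0.44 and 0.22. Of those 6, Tenm2 and Tenm3 had 1 and 2 other probe sets, all of which were called, in a direction not shown here. Nrxn3, a neurexin of the presynaptic membrane, read 22.4, 78.3 and 33.4 in GFP-positive arrays, against 472, 730.1 and 610.4 in GFP-negative arrays, and differed by -3.44 (SE 0.34, limma adjusted p = 0.000747), and its other probe set, on chip C, differed by -4.41. Flrt3, a membrane protein that bridges latrophilins and UNC5 receptors, read 9.51, 12.6 and 9.51 in GFP-positive arrays, against 207, 70.2 and 165 in GFP-negative arrays, and differed by -2.52 (SE 0.34, limma adjusted p = 0.00277). Of its 4 other probe sets 3 were called lower as well, and 168712_r_at was not (0.14). Tenm4, a teneurin, differed by -0.40 on chip A (SE 0.07, limma adjusted p = 0.0155), and that call ended without GFP-positive replicate 2 (adjusted p = 0.0597) or any of the GFP-negative replicates (adjusted p from 0.0540 to 0.0620). Its 105066_at on chip B was farther apart, at 21.0, 27.0 and 28.9 in GFP-positive arrays against 266, 344 and 225 in GFP-negative arrays.

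Among partners of other receptors, Tgm2, the transglutaminase that binds Adgrg1, read 36.2, 38.5 and 43.0 in GFP-positive arrays, against 15.1, 8.80 and 11.1 in GFP-negative arrays, and rose by 1.00 (SE 0.11, limma adjusted p = 0.00194). Cd55, the complement regulator that binds Adgre5, was dim at 12.8 ± 1.39 in GFP-positive and 7.003 ± 1.64 in GFP-negative arrays (SD, n = 3 each). Its difference of 0.32 (limma adjusted p = 0.0471) was no longer called without any 1 of GFP-positive replicates 1 and 2 or GFP-negative replicates 1, 2 and 3 (adjusted p from 0.0906 to 0.151). On chip B another dim Cd55 probe set, 107626_at, was called higher (0.62, SE 0.10) and 164905_r_at was not called (-0.22, SE 0.09). Reck, the membrane partner of Adgra2, read 181, 316 and 121 in GFP-positive arrays, against 510.1, 295 and 436 in GFP-negative arrays. The populations overlapped through GFP-positive replicate 2, and the difference of -1.02 (SE 0.36, limma adjusted p = 0.116) was called once that array was left out (-1.36, adjusted p = 0.0406). Wnt7a and Wnt7b, the ligands of that pair, were dim and did not pass, at -0.09 (SE 0.08) and 0.08 (SE 0.08).

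Of the G proteins and signal carriers, 21 of 23 were measured, 5 were called higher and 1 lower (6 and 1 without GFP-positive replicate 3), and the median was 0.00. Gnai2, an inhibitory G protein alpha subunit, read 3118, 3057 and 2676 in GFP-positive arrays, against 757, 747 and 750.1 in GFP-negative arrays, and rose by 1.95 (SE 0.08, limma adjusted p = 7.31e-05), although its probe sets 99597_at (0.66) and 99598_g_at (0.92) did not pass. Rhoa, the small GTPase that acts after the G proteins Gna12 and Gna13, rose by 1.68 (SE 0.18, limma adjusted p = 0.00211) on its brightest probe set, and its other probe sets were at -0.05 and 0.18. Gnas, the stimulatory subunit, rose by 0.86 (limma adjusted p = 0.0218), a call that ended without GFP-positive replicate 1 or 2 or GFP-negative replicate 2 or 3 (adjusted p from 0.0572 to 0.0855) and under quantile normalization (0.65, adjusted p = 0.0810). Its 4 other probe sets, all dim, did not pass, at -0.10, 0.14, 0.17 and -0.02. Gnao1, the alpha subunit most abundant in neurons, read 49.5, 92.4 and 59.2 in GFP-positive arrays, against 741, 1313 and 1363 in GFP-negative arrays, and differed by -3.78 (SE 0.30, limma adjusted p = 0.000636), while 3 of its 4 other probe sets did not pass. Gna12 and Gna13, to which several adhesion receptors couple, did not pass at -0.42 (SE 0.22) and -0.45 (SE 0.18). Arhgef12, a guanine nucleotide exchange factor activated by them, was at 0.92 (SE 0.26, limma adjusted p = 0.0517) and was called at 1.15 once GFP-positive replicate 3 was left out (adjusted p = 0.00657). Of its dimmer probe sets, 112725_at (0.48, SE 0.10) and 116190_at (0.57, SE 0.16) were called higher with all arrays and 111716_at (0.65, SE 0.29) was not.

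The proteins that join Adgrv1 in hair cell and photoreceptor links were hardly covered, with 2 of 10 measured. Myo7a, the Usher myosin, was at 49.5 ± 6.48 in GFP-positive and 49.4 ± 6.07 in GFP-negative arrays (SD, n = 3 each), and Whrn, the scaffold whirlin, was at 0.05 on the log2 scale. Neither passed.

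**Figure D3:**
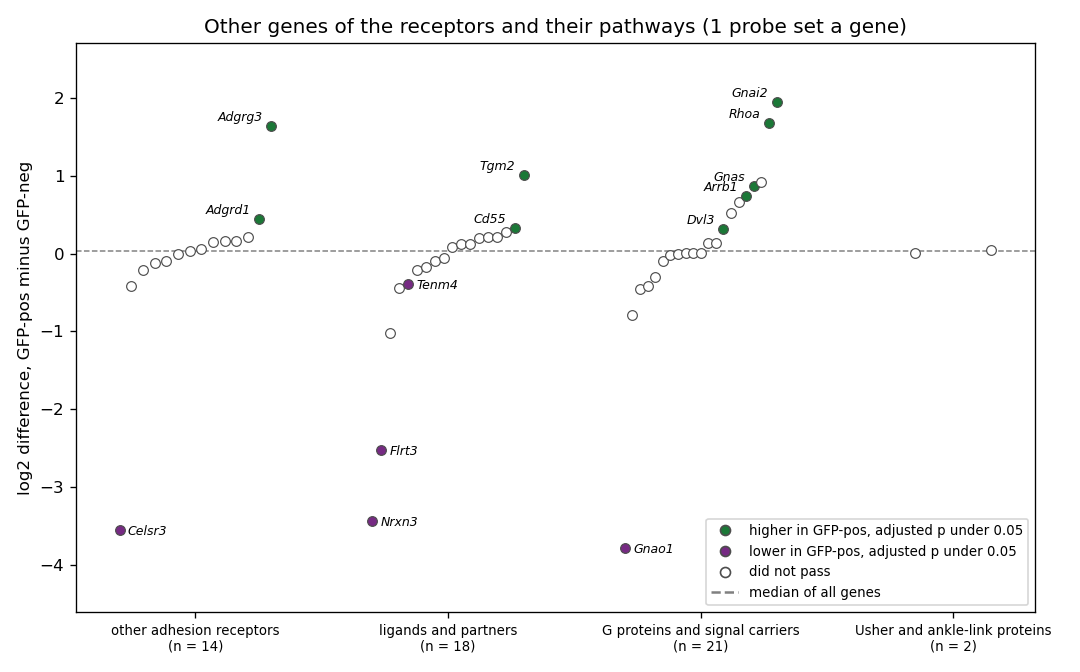
Log2 difference, GFP-positive minus GFP-negative, of each measured gene of the 4 lists, filled where the limma adjusted p was under 0.05 and open where it was not, with the median of all genes dashed. Most genes lie near 0, and Celsr3, Flrt3, Nrxn3 and Gnao1 lie lowest, at -2.52 or below.

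For each receptor with a call, the other genes on its chip were ranked by Pearson r of log2 values over the 6 arrays with its brightest called probe set. These 6 values fall into the 2 populations, which all genes on the chip share, so r is a description. Adgrf5 was most like Akap2, Mmrn2 and Mecom, each with r of 0.999 or above, and 94 of 10579 probe sets exceeded 0.99. Adgrl4 on chip C was most like Rcan2, Foxq1 and Sox17, also at 0.999, and 28 of 7716 exceeded 0.99. Foxq1 and Sox17, both transcription factor genes, differed by 5.31 and 5.58 there, but Rcan2, which ranked first, differed by 1.07. A high r thus does not mean a difference of similar size. Adgrv1 on chip C was most like Enah, Slc49a4 and C130071C03Rik (r of 0.999, 0.998 and 0.998), and 74 of 7716 exceeded 0.99. Adgra2, Adgrl2 and Adgrl3 had 12, 10 and 7 probe sets above 0.99, led by Sgo2a (0.996), Scn8a (0.998) and Ubap1 (0.996).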

How the data were processed

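Amplified, biotin-labelled RNA was hybridised to Affymetrix MGU74v2 arrays in 1 colour, per the labels' protocols. Each deposited value is the intensity of a probe set on a linear scale. The authors' probe summary, background correction and normalization are not given in the sources used here. They bear on every value. Array medians were alike within a chip, so the deposited intensities were kept. Detection calls were not used here, so dim readings may be background, and the number of arrays limits the precision.

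Gene symbols came from the array's platform annotation. Each chip was fitted alone on log2(intensity + 16) with limma 3.58.1 in R 4.3.3 (lmFit and eBayes, two-sided), with Benjamini-Hochberg adjustment over the chip and no block. The test was checked on simulated data. Set changes of 1 on the log2 scale were called in 74%, 76% and 73% of cases on chips A, B and C. Changes of 2 were called in 93%, 95% and 90%, and 15, 7 and 8 unchanged probe sets were called. A probe set without a call may thus still differ. The members and lists were chosen with earlier results of these data known. Text names every receptor probe set, the 3 list genes called with the largest difference in each direction, and the brightest that did not pass. Gna12, Gna13, Wnt7a, Wnt7b, Whrn, Tenm2, Tenm3 and further probe sets of the named genes were added after values were seen. So were the markers Kdr, Glul, Fcer1g, Laptm5, C1qb, Mcam and Rgs5, beside the planned Ptprc, Csf1r and Pdgfrb. The planned markers Tek, Cldn5 and Rlbp1 are not given by name elsewhere. Alternatives were other normalizations, pseudocounts, filters, weights, thresholds, a replicate block and omission of each array. Figures used matplotlib 3.10.9.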

Additional observations from a re-analysis of the deposited data

How the results depend on the processing

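The count of receptor probe sets called higher was 5 and stayed at 4 or 5 under every alternative run. The count called lower was 4 and became 2 where at least 2-fold was asked. It lay between 3 and 7 when each array was left out in turn. The 7 came without GFP-positive replicate 3, when calls over all probe sets rose as well. Without that array the difference of 108316_at of Adgrv1 turned to -0.63 and that of 160276_at of Adgre5 to -0.45, both called. With single arrays left out these differences ran from -0.63 to 0.91 and from -0.45 to 0.25. The counts over the 4 lists were 9 higher and 5 lower. The higher count was 5 at an adjusted p under 0.01, 4 with at least 2-fold and 13 with array weights. With single arrays left out it was 5 to 12, of which the 5 came without GFP-negative replicate 3. The lower count was 8 with array weights and 4 to 7 with single arrays left out. Calls over all probe sets also rose with array weights, in both directions. Whether the replicate numbers pair the arrays is not stated. Deviations from the population means correlated between -0.37 and 0.29 for same-numbered arrays and between -0.41 and 0.44 for the others. With 3 arrays per population, deviations from a shared mean depend on each other, so these values cannot decide it. With the replicate number as a block, 5 receptor probe sets were called higher and 5 lower, the added one being 97358_at of Adgrl1 (-0.72), and 7 list genes were higher and 4 lower. The filter on dim probe sets left 11 of the 18 receptor probe sets. Fits with an array or dim probe sets left out also held fewer arrays or probe sets, and the cause of these changes was not tested.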
